A study of Homo sapiens with 8 samples.

Results

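The aldo-keto reductase genes examined here were AKR1A1, AKR1B1, AKR1B10, AKR1B15, AKR1C1, AKR1C2, AKR1C3, AKR1C4, AKR7A2 and AKR7A3, 10 of the 60291 genes in the count files. They were chosen by gene symbol, and all 10 symbols were matched to a gene identifier in the files. Aldo-keto reductases use NADPH to reduce aldehydes and ketones to alcohols, and their substrates include sugars, lipid aldehydes, retinal, steroids and drugs. Several of these genes carry antioxidant response elements and are widely used as readouts of NRF2, the transcription factor encoded by NFE2L2, which KEAP1 otherwise marks for degradation.

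The data were total RNA sequencing of A549 cells, an established human lung adenocarcinoma line in which NRF2 is constitutively high because of a loss-of-function mutation in KEAP1, a background shared by every library here. In each transfection 250000 cells received 5 nmol of an siRNA, a small double-stranded RNA that leads to breakdown of the mRNA it matches, and RNA was taken after 48 h. There were 3 libraries with NFE2L2 siRNA (3 different duplexes, each transfected once), 4 with control siRNA (2 non-targeting duplexes used in 2 transfections apiece) and 1 from a mock transfection, which received the reagent without siRNA. Each duplex was therefore tested in 1 culture or in 2, and p-values measure only the spread between these transfections. Between 35525141 and 41645410 reads per compared library were counted on genes, and 39498992 in the mock library. Levels are given as reads or as CPM, counts per 1000000 gene reads after TMM scaling of the libraries (factors between 0.950 and 1.03), and the mock library was described beside the controls and entered a test only where it is stated to be added to them.

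NFE2L2 itself (ENSG00000116044.11) was measured at 32.6, 52.2 and 29.5 CPM with NFE2L2 duplexes 1, 2 and 3, and at 107 to 117 CPM in the control libraries. The groups did not overlap, and the log2 fold change was −1.55 (SE, standard error, 0.179, and adjusted p = 0.000994 by edgeR's quasi-likelihood test). Against either control duplex alone, or with the control duplexes summed, the adjusted p was 0.0229 to 0.0259. Fewer cells of a kind and less RNA per cell cannot be told apart in such bulk RNA. All 5 epithelial markers checked (KRT8, KRT18, KRT19, EPCAM, CDH1) were detected, at 7360 to 11620 CPM in sum with NFE2L2 siRNA against 7590 to 8430 with control siRNA, sums made up mostly of KRT8 and KRT18. None passed the threshold in the main edgeR fit, but the log2 fold changes of KRT19 (0.88, adjusted p = 0.0201), EPCAM (0.80, adjusted p = 0.0624) and CDH1 (0.74, adjusted p = 0.0455) were positive. The median of the list was 0.74, 3 of the 5 had an unadjusted p under 0.05, DESeq2 called 2 and limma-voom none. By edgeR, 2 were called as increased with genes of at least 1 read and at a threshold of 0.05. It called 1 against control duplex 2 alone, with mock added, without NFE2L2 duplex 2 and without the first transfection of control duplex 1. Between control duplexes 2 and 1, edgeR's log2 difference was −0.67 for CDH1 (adjusted p = 0.00585), −0.55 for EPCAM (adjusted p = 0.0736) and −0.11 for KRT19 (adjusted p = 0.454). The surfactant and lung lineage markers NKX2-1, SFTPB, SFTPC and SFTPA1 had at most 6 reads in any library, and SFTPA1 was at 0 in all 8. Of 9 markers of immune cells, endothelium and fibroblasts, 8 were found and 5 could be tested. CDH5, COL1A1 and PDGFRA rose by edgeR, while DESeq2 called all 5 and limma-voom 2. CDH5 and PDGFRA rest on few reads, at most 39 and 48 in any library. The 3 edgeR calls became 2 without NFE2L2 duplex 2 and 1 without NFE2L2 duplex 3 or without any one control library. They became 0 against either control duplex alone or with the control duplexes summed. The summed level of the list was 23.9 to 27.2 CPM with NFE2L2 siRNA against about 10 to 13.7 with control siRNA, made up mostly of COL1A1 and CD14. PTPRC, CD3E and VWF had at most 3, 1 and 5 reads. The part of these markers in the results on the aldo-keto reductases was not tested.

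With NFE2L2 siRNA, 6 of the 10 aldo-keto reductase genes fell. These were AKR1B10, AKR1B15, AKR1C1, AKR1C2, AKR1C3 and AKR1B1, and the decrease ranged from 12.3-fold for AKR1B10 to 1.72-fold for AKR1B1. A gene was called where its adjusted p (Benjamini-Hochberg over the 17811 genes that reached 10 reads in 1 or more of the 7 compared libraries) was below 0.01. By this rule 1.36% of all tested genes were reduced and 2.76% changed in either direction, and the median log2 fold change was −1.23 over the 10 genes and 0.008 over all tested genes. All 10 genes passed the filter on low counts. In the same 6 genes the highest NFE2L2 siRNA value was under the lowest control value, a separation that 11.8% of all tested genes showed. AKR1C4, AKR7A2, AKR7A3 and AKR1A1 did not pass the test. Together the 10 genes took 0.978% ± 0.0472 (SD, n = 4) of all gene reads with control siRNA and 0.258% ± 0.0217 (SD, n = 3) with NFE2L2 siRNA, with 0.888% in the mock library.

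**Figure D1:**
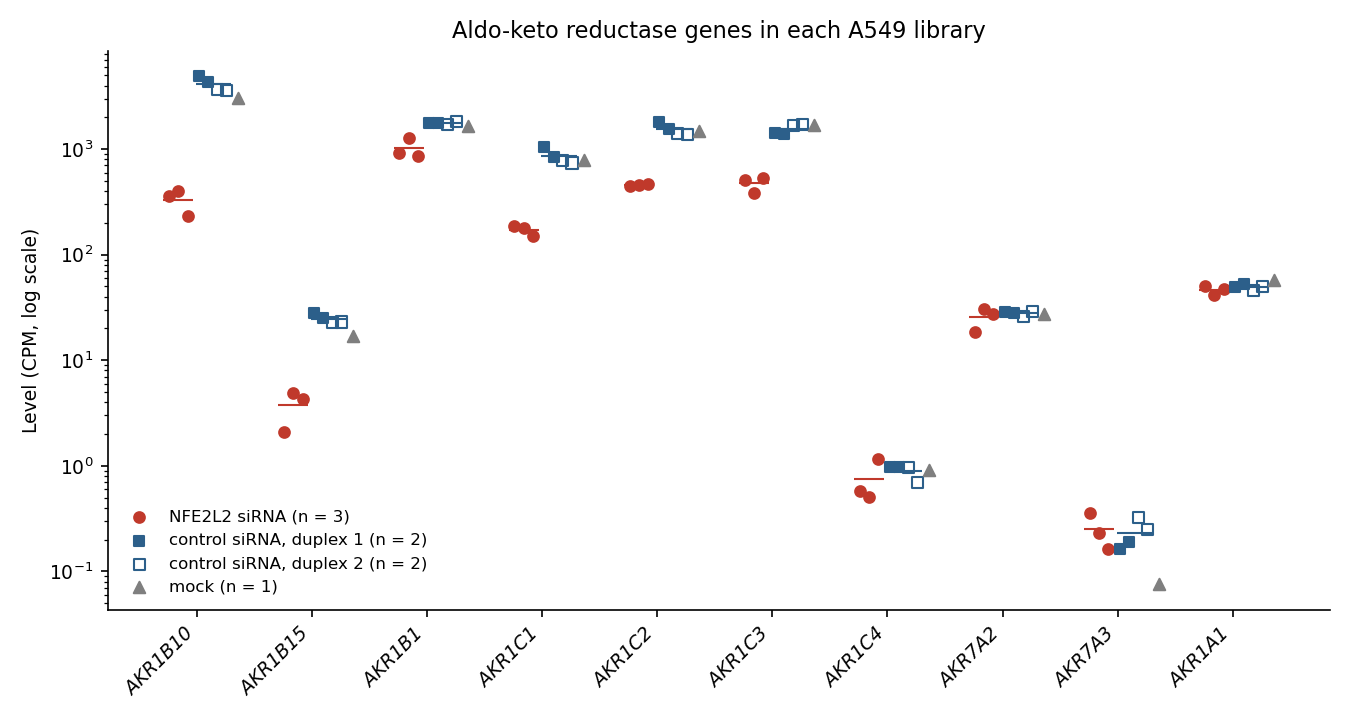
Level of each aldo-keto reductase gene in every library, in CPM on a log scale, with short lines at the group means. Circles are the 3 NFE2L2 siRNA libraries, squares the 4 control siRNA libraries and triangles the mock library. AKR1B10 lay at 235 to 400.3 CPM with NFE2L2 siRNA and at 3603 to 4906 CPM with control siRNA, whereas AKR1A1 and AKR7A2 overlapped between the groups.

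The AKR1B genes lie side by side on chromosome 7 (GRCh37), AKR1B1 (ENSG00000085662.9) from 134127108 to 134144036 on the minus strand, AKR1B10 (ENSG00000198074.5) from 134212319 to 134226164 and AKR1B15 (ENSG00000227471.4) from 134233862 to 134264627, both on the plus strand. AKR1B10 and AKR1B15 are close copies, with 85.9% of aligned coding positions identical against 76.1% between AKR1B1 and AKR1B10, gaps counted as differences. Of the 146 differences between AKR1B10 and AKR1B15, 84 were gaps, since the coding part of AKR1B15 is longer (1032 bases against 948). Their likeness bears on the counts, because the authors' counting assigned no gene to a read that fits several places in the genome. Such reads were 16.9 to 19.1% of all counted entries in these libraries. The longest coding stretch without a difference between AKR1B10 and AKR1B15, 116 bases, is shown because reads lying wholly within it cannot be given to either gene. It is written in lower case throughout since no base differs, and it spans coding bases 236 to 351 of AKR1B10 and 320 to 435 of AKR1B15 in GENCODE v44.
AKR1B10 and AKR1B15: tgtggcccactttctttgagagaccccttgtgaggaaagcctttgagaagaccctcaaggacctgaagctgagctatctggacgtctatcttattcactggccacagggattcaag
Of all 75-base windows of the canonical transcript, 7.31% in AKR1B10 and 4.59% in AKR1B15 occurred unchanged in a transcript of another gene, and 0% in AKR1B1. With windows of 50 bases these shares were 18%, 11.5% and 4.95%.

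AKR1B10, which reduces retinal and a wide range of aliphatic and aromatic aldehydes, showed the largest decrease of the family. Its reads numbered 12980, 15686 and 10048 with NFE2L2 duplexes 1, 2 and 3, against 181624, 157356, 137054 and 130105 in the control libraries and 122323 in the mock library. The NFE2L2 siRNA libraries were all far lower than the controls. The mean level was 331 ± 86.2 CPM (SD, n = 3) against 4116 ± 605 CPM (SD, n = 4), a log2 fold change of −3.62 (SE 0.206, adjusted p = 1.22e-05). By number of reads AKR1B10 ranked 9 to 11 among all genes in the control libraries and 16 in the mock library, and 394, 339 and 679 with NFE2L2 duplexes 1, 2 and 3. Its share of the reads of the 10 genes was 41.3% ± 2.94 (SD, n = 4) with control siRNA and 12.9% ± 2.47 (SD, n = 3) with NFE2L2 siRNA.

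AKR1B15, a less abundant enzyme related to AKR1B10, had 76, 192 and 184 reads with NFE2L2 duplexes 1, 2 and 3. It had 832 to 1031 reads in the control libraries and 673 in the mock library. The groups did not overlap, and the log2 fold change was −2.70 (SE 0.245, adjusted p = 0.00025). The reads on AKR1B15 amounted to 0.568 to 0.64% of those on AKR1B10 in the control libraries. This proportion was 0.55% in the mock library, 0.586% with NFE2L2 duplex 1 and higher, 1.22% and 1.83%, with duplexes 2 and 3. Whether the reads on AKR1B15 are its own transcripts or misplaced AKR1B10 reads was not tested. With the reads of both genes added together the log2 fold change was −3.62, the value of AKR1B10 alone. AKR1B15 adds so few reads that this sum says nothing of AKR1B15 itself. Against control duplex 2 alone the call on AKR1B15 was lost (log2 fold change −2.61, adjusted p = 0.0116).

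AKR1B1, aldose reductase, which converts glucose to sorbitol in the polyol pathway, was reduced far less. It had 33484, 50176 and 36838 reads with NFE2L2 duplexes 1, 2 and 3, and 64275 to 65729 in the control libraries. The control libraries were close to one another and the NFE2L2 siRNA libraries, although spread widely, were all lower. The level was 1022 ± 226 CPM (SD, n = 3) against 1765 ± 39.5 CPM (SD, n = 4), and the log2 fold change was −0.78 (SE 0.132, adjusted p = 0.00754). This call was lost in 9 of 22 alternative settings, in all of which the fold change stayed negative. It was lost against either control duplex alone, with the control duplexes summed (adjusted p = 0.0972) and without any one library except that of NFE2L2 duplex 2 (adjusted p = 0.0192 to 0.0298). Without NFE2L2 duplex 2 the log2 fold change was −0.98 (adjusted p = 0.00052).

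The AKR1C genes lie together on chromosome 10 (GRCh37), AKR1C1 (ENSG00000187134.8) from 5005445 to 5025475, AKR1C2 (ENSG00000151632.12) from 5029967 to 5060223, AKR1C3 (ENSG00000196139.7) from 5077546 to 5149878 and AKR1C4 (ENSG00000198610.6) from 5237425 to 5260912, AKR1C2 on the minus strand and the others on the plus strand. They are hydroxysteroid dehydrogenases whose coding parts are all 969 bases long. AKR1C1 and AKR1C2 are nearly the same gene, with 19 differences in 969 coding bases (98% identity), while AKR1C3 shared 91.4% and AKR1C4 88.8% of aligned positions with AKR1C1. To show how few positions separate AKR1C1 from AKR1C2 reads, coding bases 161 to 280 of both are given with the 2 differing positions in capitals.
AKR1C1: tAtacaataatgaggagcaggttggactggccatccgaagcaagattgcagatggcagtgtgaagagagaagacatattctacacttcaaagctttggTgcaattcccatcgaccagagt
AKR1C2: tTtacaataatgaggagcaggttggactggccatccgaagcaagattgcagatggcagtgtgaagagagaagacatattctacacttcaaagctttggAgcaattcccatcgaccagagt
The last 186 coding bases of AKR1C1 and AKR1C2 (784 to 969) held no difference. Of 75-base windows, 36% in AKR1C2, 16.8% in AKR1C1, 12.3% in AKR1C3 and 6.53% in AKR1C4 occurred unchanged in another gene's transcript. Among windows of the coding part, which has the same length in each, the shares were 40.8% in AKR1C2 and 35.5% in AKR1C1. The counts of AKR1C1 and AKR1C2 are therefore incomplete, and the split of reads between them is uncertain.

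AKR1C1, which reduces progesterone to a less active form, was measured at 189, 178 and 150 CPM with NFE2L2 duplexes 1, 2 and 3 and at 1045, 850, 777 and 738 CPM in the control libraries, with 796 CPM in the mock library. The groups were far apart, and the log2 fold change was −2.30 (SE 0.145, adjusted p = 2.21e-05). AKR1C2, which inactivates dihydrotestosterone, was measured at 446, 454 and 466 CPM with NFE2L2 siRNA and 1387 to 1789 CPM with control siRNA. The 3 NFE2L2 duplexes left almost the same level of AKR1C2 (456 ± 9.80 CPM, SD, n = 3), and the log2 fold change was −1.74 (SE 0.110, adjusted p = 2.21e-05). With the reads of AKR1C1 and AKR1C2 added together, which does not depend on how reads are split between them, the log2 fold change was −1.92.

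AKR1C3, which forms testosterone from androstenedione and acts in prostaglandin synthesis, was measured at 514, 385 and 535 CPM with NFE2L2 duplexes 1, 2 and 3, and at 1410, 1383, 1690 and 1722 CPM with control siRNA. All NFE2L2 siRNA libraries were lower than all control libraries, with a log2 fold change of −1.69 (SE 0.148, adjusted p = 0.000201). AKR1C4, a liver enzyme of bile acid synthesis, was barely detected. NFE2L2 siRNA libraries held 21, 20 and 50 reads of it and control libraries 25 to 36. The groups overlapped, and the log2 fold change of −0.24 (SE 0.311, adjusted p = 0.685) did not pass the test. At this depth a moderate difference in AKR1C4 would not have been detectable.

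AKR7A2 and AKR7A3, aflatoxin aldehyde reductases, lie next to each other on the minus strand of chromosome 1 (GRCh37), AKR7A3 (ENSG00000162482.4) from 19609067 to 19615264 and AKR7A2 (ENSG00000053371.8) from 19630459 to 19638638. AKR7A2, which also reduces succinic semialdehyde, was measured at 18.4, 30.9 and 27.6 CPM with NFE2L2 duplexes 1, 2 and 3 and at 27.7 ± 1.23 CPM (SD, n = 4) with control siRNA. Duplex 1 lay below and duplex 2 above all control libraries. The log2 fold change was −0.10 (SE 0.157, adjusted p = 0.731), and it was 0.08 without duplex 1. AKR7A3 had 13, 9 and 7 reads with NFE2L2 siRNA, 6 to 12 with control siRNA and 3 in the mock library, with a log2 fold change of 0.11 (SE 0.402, adjusted p = 0.901), so that no difference was detectable at this depth. AKR1A1 (ENSG00000117448.9; chromosome 1, 46016215 to 46035721, plus strand), the general aldehyde reductase that also takes part in ascorbate metabolism in other mammals, had 1823, 1644 and 2032 reads with NFE2L2 duplexes 1, 2 and 3 (46.6 ± 4.29 CPM, SD, n = 3) and 1689 to 1942 reads with control siRNA (49.4 ± 3.02 CPM, SD, n = 4). The groups overlapped, and the log2 fold change was −0.07 (SE 0.0998, adjusted p = 0.707).

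**Figure D2:**
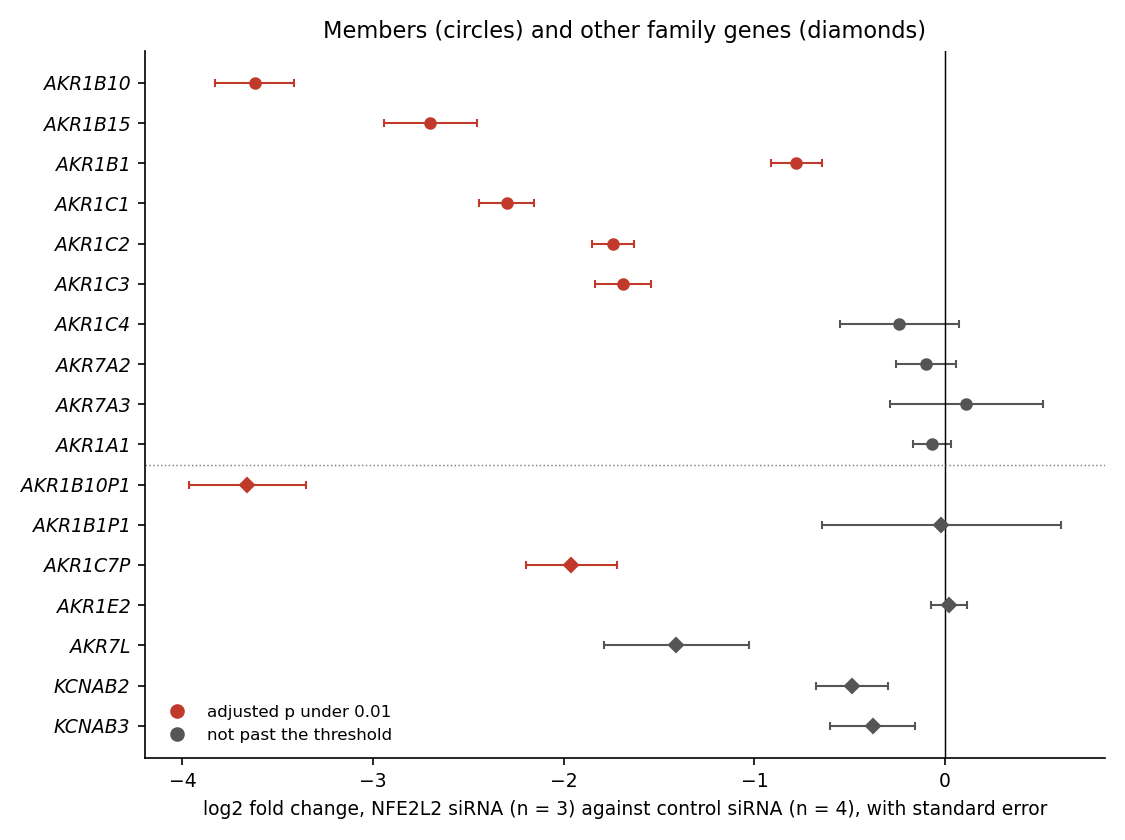
The log2 fold change of each aldo-keto reductase gene (circles) and of the 7 other tested genes of the superfamily (diamonds), NFE2L2 siRNA (n = 3) against control siRNA (n = 4), with standard errors. Red marks genes with an adjusted p under 0.01. The changes of the 6 called genes run from −3.62 for AKR1B10 to −0.78 for AKR1B1.

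The individual NFE2L2 duplexes ranked differently from gene to gene. As a percentage of the control mean, NFE2L2 was left at 29.1, 46.6 and 26.3% by duplexes 1, 2 and 3. AKR1B10 was left at 8.72, 9.73 and 5.70% and AKR1B1 at 52.5, 72.6 and 48.8%, in both cases in the same order as NFE2L2, highest with duplex 2 and lowest with duplex 3. The other 4 genes had another order. AKR1C1 was left at 22.2, 20.9 and 17.6%, AKR1C2 at 29.1, 29.6 and 30.3%, and AKR1C3 at 33.2, 24.8 and 34.5%, lowest with duplex 2. AKR1B15 was left at 8.51, 19.8 and 17.4%, highest with duplex 2 but lowest with duplex 1. With 1 library per duplex these orders have no replicate check.

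**Figure D3:**
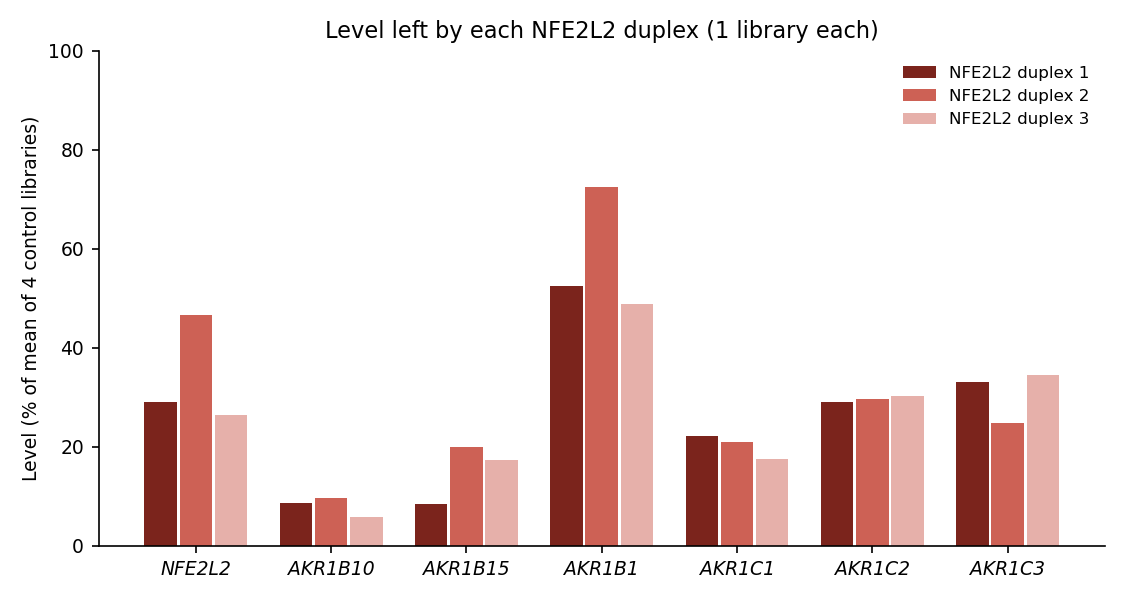
Level of NFE2L2 and of the 6 reduced aldo-keto reductase genes with each NFE2L2 duplex, as a percentage of the mean of the 4 control siRNA libraries (bars, 1 library each). AKR1B10 was below 10% with every duplex, whereas AKR1B1 stayed between 48.8 and 72.6%.

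Ratios between paralogues within a library, which are free of library scaling, were compared for 4 pairs to ask whether neighbouring genes responded to the same degree. The log2 ratio of AKR1B10 to AKR1B1 reads was −1.37, −1.68 and −1.87 with NFE2L2 duplexes 1, 2 and 3, and 1.48, 1.28, 1.09 and 0.99 in the control libraries. AKR1B10 thus had fewer reads than AKR1B1 in every NFE2L2 siRNA library and more in every control library. The difference was −2.85 (two-sided exact permutation test, p = 0.0571, adjusted over the 4 ratios p = 0.114). With 3 against 4 libraries there are 35 divisions, and 0.0571 is the smallest p they allow, so that this test cannot reach 0.05. The log2 ratio of AKR1C1 to AKR1C2 was −1.24, −1.35 and −1.64 with NFE2L2 siRNA against −0.91 to −0.78 with control siRNA, without overlap (difference −0.55, exact p = 0.0571, adjusted p = 0.114). AKR1C1 reads made up 24.4 to 29.7% of the reads on both genes with NFE2L2 siRNA, and 34.7 to 36.9% in the control libraries. The log2 ratio of AKR1C3 to AKR1C1 overlapped between the groups, at 1.45, 1.11 and 1.84 against 0.43, 0.70, 1.12 and 1.22 (difference 0.59, exact p = 0.171, adjusted p = 0.229). The ratio of AKR7A3 to AKR7A2 also overlapped (difference 0.23, exact p = 0.629) and rests on few AKR7A3 reads.

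**Figure D4:**
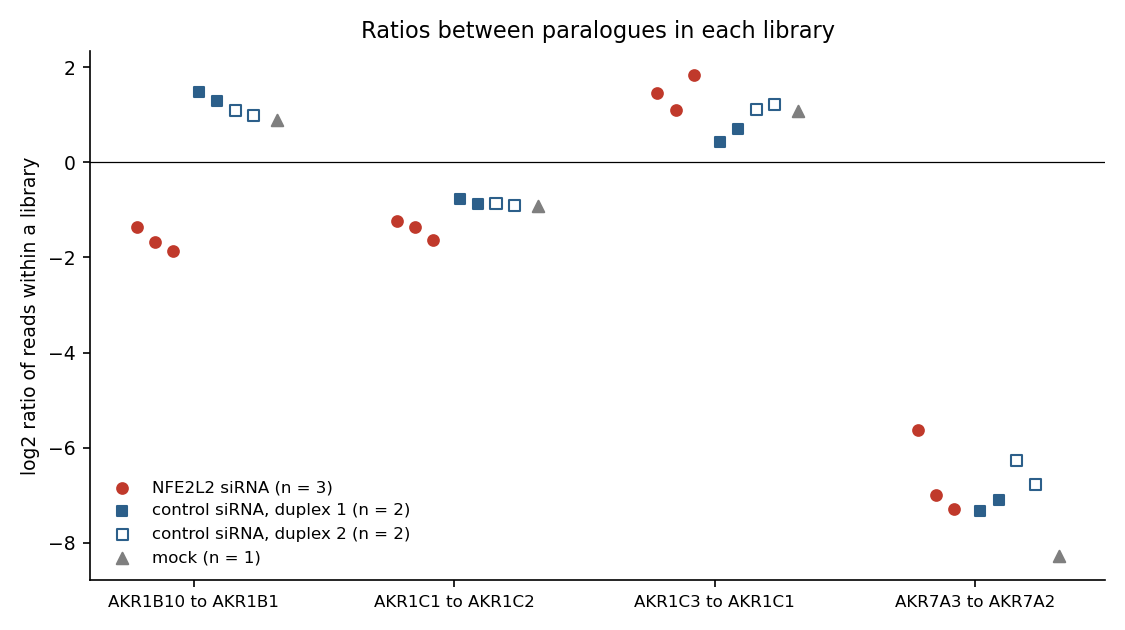
The log2 ratio of reads between pairs of paralogues in each library (points), by group. The ratio of AKR1B10 to AKR1B1 lies between −1.87 and −1.37 with NFE2L2 siRNA and between 0.99 and 1.48 with control siRNA, while the ratio of AKR1C3 to AKR1C1 differs between the control duplexes and overlaps.

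The control duplexes were compared with each other in the same way. Between control duplexes 2 and 1 (2 libraries each), 3.29% of 17261 tested genes were called by the same edgeR test, and none of the 10 aldo-keto reductase genes was. AKR1C3 was the only 1 of the 10 among the 1736 genes called at an adjusted p under 0.05. Of the 10, 5 had an unadjusted p under 0.05, and DESeq2 called AKR1C3 and AKR1B10. Shares of all tested genes by these last 2 rules are not given here. AKR1C3 was higher with duplex 2 (log2 difference 0.31, adjusted p = 0.0228). AKR1B10 (−0.31, adjusted p = 0.0565), AKR1C1 (−0.30, adjusted p = 0.0753), AKR1C2 (−0.24, adjusted p = 0.0979) and AKR1B15 (−0.18, adjusted p = 0.1804) had lower values with duplex 2. The mock library lay below all 4 control libraries for AKR1B10 (3071 CPM), AKR1B15 (16.9 CPM), AKR1B1 (1656 CPM) and AKR7A3 (0.0753 CPM), and above them for AKR1A1 (57.4 CPM). Of all tested genes, 22.1% were below and 22.5% above all control libraries in the mock library, which has no replicate. The mock level of AKR1B10 was 74.6% and that of AKR1B15 68.4% of the control mean, while each remained well above all NFE2L2 siRNA libraries.

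Levels were set against one another per length, as CPM per kb of the canonical transcript. In the control libraries AKR1B10 was highest (2542 ± 374 CPM per kb, SD, n = 4), followed by AKR1C3 (1308 ± 151), AKR1B1 (1297 ± 29.0), AKR1C2 (478 ± 57.8) and AKR1C1 (130 ± 20.8). AKR1C3 and AKR1B1 did not differ beyond their spread, and AKR1B1 came before AKR1C3 when all exons or the coding part gave the length. AKR1A1 (35.1 ± 2.15), AKR7A2 (20.4 ± 0.905) and AKR1B15 (15.1 ± 1.40) were lower, and AKR1C4 (0.757 ± 0.118) and AKR7A3 (0.19 ± 0.0584) were near the limit of detection. With NFE2L2 siRNA AKR1B1 came first (751 ± 166 CPM per kb, SD, n = 3), then AKR1C3 (403 ± 68.7), AKR1B10 (205 ± 53.2) and AKR1C2 (142 ± 3.05). AKR1B1 was first and AKR1B10 no longer first by the other 2 lengths as well. Levels of AKR1C1 and AKR1C2 leave out reads shared between them, and the long canonical transcript of AKR1C1 (6543 bases, against 3215 for AKR1C2 and 1186 for AKR1C3) lowers its value per kb.

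Other genes and pseudogenes of the superfamily were read from a list of 22. Of these, 7 had enough reads to be tested and 2 were reduced, beside 1.36% of all tested genes. Both were pseudogenes. AKR1B10P1, a processed pseudogene of AKR1B10 with 94.6% of aligned coding positions identical, had 34, 42 and 17 reads with NFE2L2 siRNA against 469, 404, 353 and 276 with control siRNA (log2 fold change −3.66, SE 0.307, adjusted p = 0.000147). Its reads amounted to 0.212 to 0.258% of AKR1B10 reads in the control libraries, and NFE2L2 siRNA libraries gave 0.169 to 0.268%, so that they moved almost in proportion to AKR1B10. Whether they are transcripts of the pseudogene or misplaced AKR1B10 reads cannot be told from counts. AKR1C7P, a pseudogene in the AKR1C region, had 19, 26 and 33 reads against 81 to 124 (log2 fold change −1.96, adjusted p = 0.00136). This call was lost against control duplex 1 alone (adjusted p = 0.0158), against control duplex 2 alone (0.0197) and with the control duplexes summed (0.0136). AKR7L, beside AKR7A3, was at a log2 fold change of −1.41 (adjusted p = 0.0509) on few reads. AKR1E2, whose product reduces an anhydro sugar, was at 0.02 (adjusted p = 0.908), and KCNAB2, a potassium channel subunit with an aldo-keto reductase fold, at −0.49 (adjusted p = 0.143).

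Genes within 250 kb of the family were then examined to see how far the decrease reached along the chromosome. The share of all tested genes called as reduced was 1.36%. Around the AKR1B genes 5 neighbours were tested and none was called by edgeR, with 2 at an unadjusted p under 0.05, 1 called by DESeq2 and none by limma-voom. The nearest, LINC03060 at 9822 bases from AKR1B1 and BPGM at 66936 bases beyond AKR1B15, were at −0.35 (adjusted p = 0.316) and −0.27 (adjusted p = 0.158). Around the AKR1C genes 2 of 5 tested neighbours fell, LINC02561 at 47084 bases beyond AKR1C4 (log2 fold change −1.64, adjusted p = 0.0073) and AKR1C7P at 56224 bases. The call on LINC02561 was lost when any one library was left out (adjusted p = 0.0103 to 0.0256), against either control duplex alone and with the control duplexes summed (adjusted p = 0.0456 to 0.0755). AKR1C4, which lies between AKR1C3 and these genes, was not called. None of the 8 tested neighbours of the AKR7A genes was called by edgeR, with 3 at an unadjusted p under 0.05, 1 called by DESeq2 and none by limma-voom. SLC66A1, which lies 182 bases from AKR7A2, was at −0.21 (adjusted p = 0.396). Around AKR1A1, which itself was not called, 2 of 16 tested neighbours fell. These were PRDX1, a peroxiredoxin gene 7811 bases away (log2 fold change −0.95, adjusted p = 0.00371), and CCDC17 (−1.30, adjusted p = 0.00439). In the mock library, however, CCDC17 was at 0.879 CPM, below all NFE2L2 siRNA libraries (1.02 to 1.58 CPM) and all control libraries (2.67 to 3.52 CPM). PRDX1 was also called by edgeR between control duplexes 2 and 1 (log2 difference −0.41, adjusted p = 0.00569). NASP on the other side was at −0.01 (adjusted p = 0.977). The call on PRDX1 was lost without NFE2L2 duplex 3 (adjusted p = 0.0196) or without the second transfection of control duplex 1 (adjusted p = 0.0169), and also against control duplex 2 alone (adjusted p = 0.0435) and with the control duplexes summed (adjusted p = 0.0409). That on CCDC17 was lost without NFE2L2 duplex 3, the second transfection of control duplex 1 or either transfection of control duplex 2 (adjusted p = 0.0155 to 0.0220), and with mock added, either control duplex alone or the control duplexes summed (adjusted p = 0.0488 to 0.0908).

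**Figure D5:**
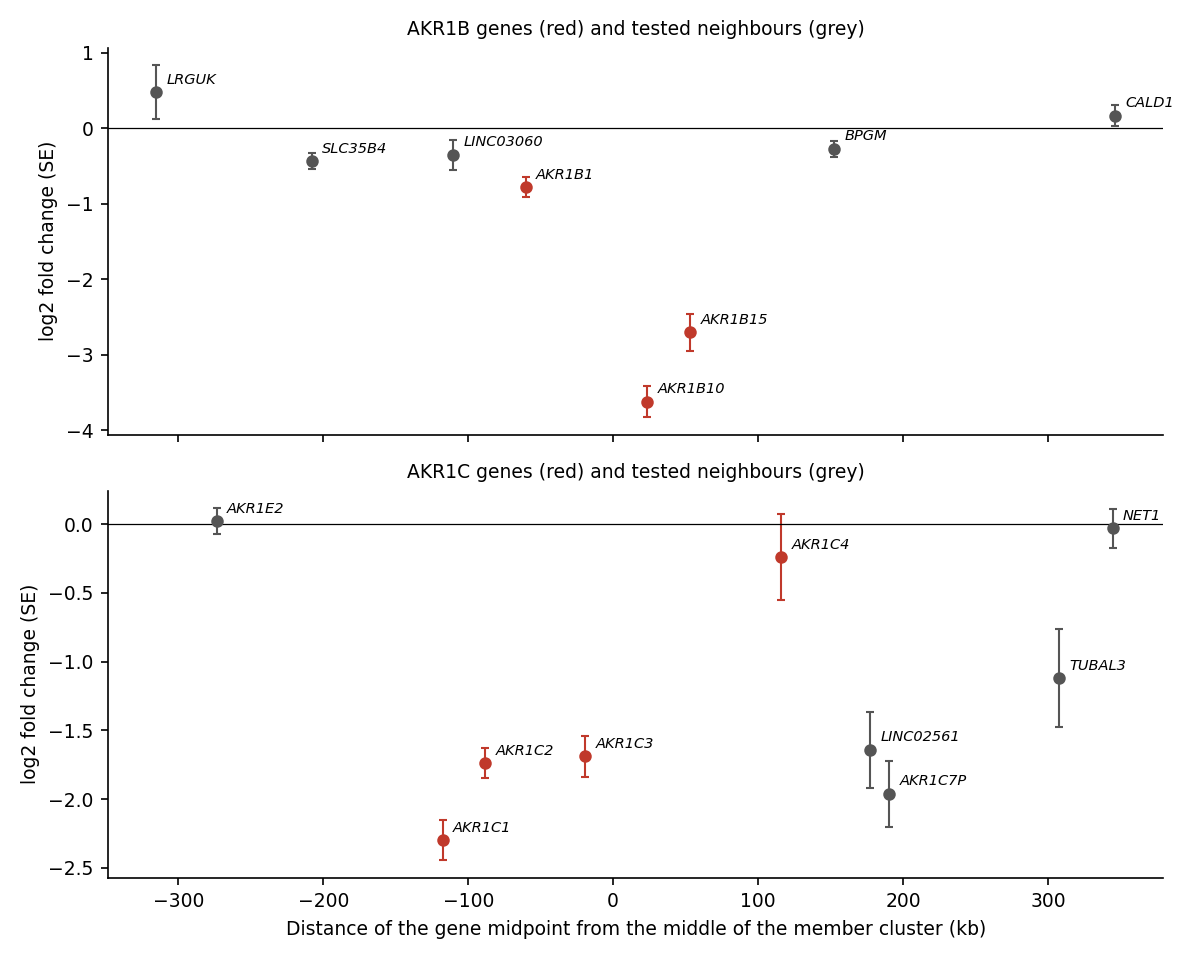
The log2 fold change with standard error of the AKR1B genes (upper panel) and AKR1C genes (lower panel) in red and of their tested neighbours in grey, against the distance of each gene's midpoint from the middle of the group of genes in kb. AKR1B10 (−3.62) and AKR1B15 (−2.70) stand below their neighbours LINC03060 (−0.35) and BPGM (−0.27), and LINC02561 (−1.64) and AKR1C7P (−1.96) lie on the far side of AKR1C4 (−0.24).

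The enzymes that share substrates or cofactor with the aldo-keto reductases were read from 3 further lists. Of all tested genes, 1.36% were reduced by the same edgeR rule. Of 19 tested enzymes for carbonyls, aldehydes and quinones, 7 fell and none rose by edgeR, while 1 was called as increased with DESeq2, with genes of at least 1 read and at a threshold of 0.05. At the last of these it was DHRS2 (log2 fold change 0.75, adjusted p = 0.0284). The mock library, at 8.43 CPM of DHRS2, lay within the NFE2L2 siRNA range (6.69 to 8.86 CPM) and above all control libraries (3.62 to 5.82 CPM). The largest decreases were those of ALDH3A1, an aldehyde dehydrogenase (log2 fold change −3.43, adjusted p = 2.21e-05), PTGR1, which reduces lipid-derived enones (−2.75, adjusted p = 4.72e-06), and NQO1, a quinone reductase (−2.19, adjusted p = 1.945e-05). CBR3 (−1.41), NQO2 (−1.37), CBR1 (−1.29) and ALDH3A2 (−1.01) were the others, and the median over the 19 was −0.33. CBR1 was also called by edgeR between control duplexes 2 and 1 (log2 difference −0.46, adjusted p = 0.00201). The call on ALDH3A2 was lost without NFE2L2 duplex 3 (adjusted p = 0.0110) or without the second transfection of control duplex 1 (adjusted p = 0.0147), and also against control duplex 1 alone (adjusted p = 0.0158), duplex 2 alone (0.0531) and with the control duplexes summed (0.0423). Those on CBR1, CBR3 and NQO2 were lost with the control duplexes summed and against control duplex 2 alone, and that on CBR3 also against duplex 1 alone (adjusted p = 0.0127 to 0.0288). Of 12 tested suppliers of NADPH, the cofactor of the aldo-keto reductases, 5 fell. Among them were PGD (−1.31), TALDO1 (−1.54) and TKT (−1.21) of the pentose phosphate pathway and ME1 (−1.24), malic enzyme, with a median of −0.56 over the 12. The calls on TKT and ME1 were lost against control duplex 2 alone and with the control duplexes summed, and that on ME1 also against duplex 1 alone (adjusted p = 0.0138 to 0.0223). Over the 22 alternative settings, 3 to 8 of the carbonyl enzymes and 2 to 6 of the NADPH suppliers were reduced.

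Other enzymes of steroid and retinoid metabolism, the partners of the AKR1C and AKR1B10 products, were not among the called genes. Of 18 tested, edgeR called none, 3 had an unadjusted p under 0.05, and neither DESeq2 nor limma-voom called any. The 4 with the highest levels were HSD17B4 (log2 fold change −0.04), HSD17B12 (−0.19), RDH11 (−0.08) and HSD17B10 (0.01), and the median of 0.01 was close to that of all tested genes.

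The antioxidant response element, to which NRF2 binds, has the core TGACNNNGC, where N is any base. It was looked for on both strands of the RefSeq windows from 250 bases before to 50 bases after each gene start (GRCh38.p14), which hold 8 of the 10 genes. AKR1B10 and AKR1B15 are the others. The core was not found in the windows of AKR1A1, AKR1B1, AKR1C1, AKR1C2, AKR1C3, AKR1C4 and AKR7A3. It was found 3 times in that of AKR7A2, which was not called, and in 13.3% of all 35116 windows. These are matches of letters in a short window and say nothing of elements further away. AKR1C1, AKR1C2 and AKR1C3 all fell (log2 fold changes −2.30, −1.74 and −1.69), and AKR1C4 was not called. Whether likeness of the windows bears on these changes was not tested. Identity to the window of AKR1C1 was 75.7% for the first window of AKR1C3 and 62.4% for AKR1C4. The windows of AKR1C1 and AKR1C2 were 97.3% identical. The 250 bases before the start of both genes are shown for this likeness, AKR1C1 at chr10:4963165-4963414 on the plus strand and AKR1C2 at chr10:5003858-5004107 on the minus strand, both read 5′ to 3′. Capitals mark 4 bases of AKR1C1 that had no partner within the aligned part of AKR1C2. The AKR1C1 stretch also begins 4 bases before the AKR1C2 one, outside the aligned part.
AKR1C1: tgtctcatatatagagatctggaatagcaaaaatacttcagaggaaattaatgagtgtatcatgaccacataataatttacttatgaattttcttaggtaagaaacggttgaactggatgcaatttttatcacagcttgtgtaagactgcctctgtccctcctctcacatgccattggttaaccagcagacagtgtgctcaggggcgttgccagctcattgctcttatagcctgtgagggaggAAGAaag
AKR1C2: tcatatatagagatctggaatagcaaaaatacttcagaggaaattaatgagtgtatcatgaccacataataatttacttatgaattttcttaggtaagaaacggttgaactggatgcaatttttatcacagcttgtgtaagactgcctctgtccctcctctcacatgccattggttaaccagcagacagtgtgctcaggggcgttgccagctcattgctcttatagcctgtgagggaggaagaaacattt

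The genes whose level followed AKR1B10 most closely across the 8 libraries were listed by Pearson's r of log2 CPM over 11123 genes. GPX3, a secreted glutathione peroxidase, and OSGIN1 came first (r = 0.998 for both), followed by AKR1B10P1 (0.997), AKR1C1 (0.996) and SRGN (0.995). For AKR1C1 the list was PTGR1 and GPX3 (0.998 for both), AKR1B10 (0.996), AKR1C2 (0.995) and ENSG00000231683 (0.995). AKR1C2 came at rank 29, AKR1B15 at 134, AKR1B1 at 176 and AKR1C3 at 209 in likeness to AKR1B10, and AKR1A1 and AKR7A2 had r = 0.432 and 0.311. The libraries form the 2 siRNA groups, so that genes reduced by NFE2L2 siRNA tend to score highly, and these values are a description of the 8 libraries.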

How the data were processed

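Total RNA depleted of ribosomal RNA was sequenced from 8 A549 transfections with a strand-specific kit. The authors aligned the reads and deposited counts, that is, reads per GENCODE v19 gene as tallied by HTSeq-count (intersection-strict, reverse strand), without normalization. The submitters' processing notes name HISAT 0.1.6, HTSeq 0.6.0 and the build hg19. Read length is not given in the sources used here. Reads on genes were 60.3 to 65.6% of all entries, and entries not assigned to a gene did not enter library sizes or tests.

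Samples were grouped by their labels. Symbols and positions were taken from the GRCh37 version of GENCODE v44, which held 55538 of 60291 identifiers. Lengths and windows are from that release, not from v19. Counts were compared with edgeR 4.0.16 in R 4.3.3 (TMM, glmQLFit and glmQLFTest, two-sided, Benjamini-Hochberg, threshold 0.01) for genes reaching 10 reads in 1 or more of the 7 libraries. The SE was obtained by dividing the size of the log2 fold change by the root of its F value. Ratios used log2 of reads plus 0.5 and exact permutation tests in SciPy 1.17.1, and likeness used log2 of CPM plus 0.5 for genes with a mean of at least 5 CPM. Coding parts and promoter windows were aligned with Biopython 1.88. In percent identities, gaps were counted as differences, except for end gaps of promoter windows. The tests were tested on simulated data first. Libraries of a group differed beyond sampling noise (chi-square per degree of freedom 12.6 to 78.1), so that none was counted as a duplicate.

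Named genes were all 10 members, NFE2L2, members of 4 lists past the threshold (filled up to 4 by the highest mean CPM), called and nearest neighbours, and the 5 genes most like AKR1B10 and AKR1C1. KCNAB2 and AKR7L were named by the same rule. The members and lists were chosen with earlier results of these data known, so that no p is given for a list. Shares of all tested genes with an unadjusted p under 0.05 are not given, so that counts by that rule have no comparison. Alternatives were DESeq2 1.42.0, limma-voom (limma 3.58.1), other scaling, filters and thresholds, a robust fit, other control groups, near copies summed, and the omission of each library. Adding the pseudogene AKR1B10P1 to AKR1B10 and the lengths from all exons and the coding part were chosen after seeing the data. The values of 1 gene of the NADPH list are not reported here.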

Additional observations from a re-analysis of the deposited data

Results flagged for a closer look

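Among 43 sets of 4 control values examined, 4 had 1 library set apart from the others. The measure was the gap to its nearest neighbour over the whole range, against Dixon's 95% limit for 4 values. This gap can be large for a small difference where the other values nearly tie. Chance alone gives about 1 in 20 such sets. AKR1C4 was lowest in the second transfection of control duplex 2, at 0.692 CPM (gap 0.964), with 25 reads against 36 in each other control library. AKR1E2 was highest in the first transfection of control duplex 1, at 18.4 CPM against 17.2 to 17.3 CPM in the others (gap 0.913). HSD17B4 at 155 CPM (gap 0.854) and PGD at 1045 CPM (gap 0.831) were highest in the same library.

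In the mock library, which was not in the main comparison, AKR1A1 was at 57.4 CPM and thus above the highest control siRNA library, at 52.7 CPM. This is 1 library without a replicate, and 22.5% of all tested genes were above all control libraries in it.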

How the results depend on the processing

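Over 22 alternatives, 4 to 6 of the 10 genes were reduced (5 to 6 with 1 library left out). AKR1B10, AKR1C1, AKR1C2 and AKR1C3 were called in all 22, with log2 fold changes of −3.79 to −3.43, −2.45 to −1.92, −1.92 to −1.62 and −1.83 to −1.54. The −1.92 in the ranges of AKR1C1 and AKR1C2 is the change of their summed reads, counted for both genes. With 1 library left out AKR1C1 ranged from −2.37 to −2.18 and AKR1C2 from −1.79 to −1.66. AKR1B1 was lost in 9 and AKR1B15 in 1, as described above. The sum of AKR1B10 and AKR1B15 is among the 22 and is no call on AKR1B15 itself. The number of all called genes, 491, moved to 1319 with DESeq2, 1019 with genes of at least 1 read, 772 with mock added to the controls, 1456 at a threshold of 0.05, 120 against control duplex 1 alone, 59 against control duplex 2 alone and 78 with control duplexes summed, and lay between 163 and 915 with 1 library left out, lowest without the second transfection of control duplex 1 and highest without NFE2L2 duplex 2. Reductions were 49.5% of the calls, and 41.6% (mock added) to 96.2% (control duplexes summed) over the alternatives. The call on NFE2L2 was lost against either control duplex alone and with the control duplexes summed (adjusted p = 0.0229 to 0.0259). Carbonyl enzymes reduced numbered 3 to 8, and NADPH suppliers 2 to 6. Between the control duplexes, 568 calls became 1736 at 0.05 and 4 with genes of at least 1 read.

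With mock added, the differences in the ratios of AKR1B10 to AKR1B1 and AKR1C1 to AKR1C2 were −2.79 and −0.54 (exact p = 0.0357). This is the smallest p possible once the mock library is added. Neither difference was larger in size than in the main comparison (−2.85 and −0.55). With 1 library left out these 2 differences ranged from −2.99 to −2.73 and from −0.64 to −0.44. That for AKR1C3 to AKR1C1 ranged from 0.41 to 0.77 and that for AKR7A3 to AKR7A2 from −0.28 to 0.56.

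Signs turned for uncalled genes near 0. AKR7A3 was at −0.21 against control duplex 2 alone and −0.23 to 0.35 with 1 library left out (−0.03 without the first transfection of control duplex 1), and AKR7A2 at −0.27 to 0.08 (0.08 without NFE2L2 duplex 1). AKR1E2 was at −0.004 against control duplex 1 alone and −0.02 without NFE2L2 duplex 2. RDH11 was at 0.01 against control duplex 2 alone and −0.19 to 0.01 with 1 library left out. HSD17B10 was at −0.01 against control duplex 2 alone, −0.00021 with genes of at least 1 read, −0.0012 with mock added and −0.06, −0.00091 and −0.01 without NFE2L2 duplex 1 or the first transfection of control duplex 1 or 2 (up to 0.06 with 1 library left out). NASP was at 0.03 with library size alone and against control duplex 1 alone, and 0.08, 0.01 and 0.00015 without NFE2L2 duplex 1 or the first or second transfection of control duplex 2 (down to −0.08 with 1 library left out). The cause of these changes was not tested. No paired analysis was possible because an NFE2L2 library's number is that of its duplex and a control library's number that of a repeat, and equal numbers share nothing.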
